A study of Homo sapiens with 8 samples.

Results

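The genes described here are 34 nuclear genes of the mitochondrial respiratory chain and ATP synthase, of 14884 genes measured. They were taken by symbol: names that begin with NDUF, SDHAF, UQCR, COX4 to COX8 or ATP5, the names SDHA to SDHD, and CYC1, leaving out pseudogenes. The annotation used held 6 complex III genes, 17 genes named COX4 to COX8, 4 complex II assembly factors, 2 complex I assembly factors, 3 genes of complex V, and 2 non-coding genes that share the NDUF prefix. Structural subunits of complexes I and II, and those encoded by mitochondrial DNA, were not analysed here.

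The respiratory chain passes electrons from NADH and succinate to oxygen through complexes I to IV of the inner mitochondrial membrane and pumps protons on the way. ATP synthase, complex V, lets the protons back and makes ATP. Most subunits are encoded in the nucleus, and the complexes are built stepwise with assembly factors that are not part of the finished enzyme. In tumour cells the chain supplies ATP and also oxidised carriers that nucleotide and amino acid synthesis need.

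PC-3, an androgen-independent line from a human prostate carcinoma, was infected with an empty p-Lenti vector or with the same vector carrying RWDD4, and cells were selected with blasticidin. Each array held RNA of 1 clonal isolate, with 4 RWDD4 clones (17, 24, 5 and 6) and 4 control clones (2, 3, 4 and 5). A group is therefore a set of separate clones, and differences between clones that existed before or arose after infection are part of its spread. The labels name no other treatment.

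Values are log2 expression after RMA, a procedure that corrects background, aligns arrays and joins the probes of a probe set. They compare 1 gene between clones and do not rank genes against each other. Array medians over all probe sets ran from 4.888 to 4.899 for RWDD4 clones and from 4.92 to 4.964 for controls. Medians over the genes tested had the opposite order, at 6.088 to 6.126 for RWDD4 clones and 5.892 to 6.026 for controls. RWDD4 lay at 10.42, 10.45, 10.46 and 9.87 in RWDD4 clones 17, 24, 5 and 6 and at 6.64, 7.58, 7.21 and 8.0 in control clones 2, 3, 4 and 5, a difference of 2.94 (SE 0.25; limma adjusted p 5.98e-05; exact two-sided permutation p 0.0286, the smallest that 4 against 4 clones allow). Of the epithelial markers, KRT8, KRT18, KRT19 and EPCAM had means of 6.40 or more in both groups, and 3 of these 4 fell in the RWDD4 clones. The endothelial marker VWF, the monocyte marker CD14 and the stromal marker DCN had means of 4.84 or less, under the median of all values (4.92), and CD14 and VWF fell. The part of these markers in the differences of the respiratory genes was not tested. PECAM1 of endothelium (5.44 and 5.57) and the androgen targets KLK2 and KLK3 (5.75 to 5.83) lay above that median, and no background level was measured here that would say whether these are signal.

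Respiratory genes moved in both directions. At an adjusted p under 0.05 in limma, 12 of the 34 rose in the RWDD4 clones (35.3%) and 7 fell (20.6%), while 15 did not pass. Over all 14884 genes, 25.1% rose and 21.6% fell. Of the 32 protein-coding members 12 rose (37.5%) and 5 fell (15.6%), and the 2 non-coding genes both fell. The groups did not overlap in 9 members that were higher in the RWDD4 clones and in 6 that were lower, against 23.7% and 21.1% of all genes. The median difference was 0.05 over the 34 genes and -0.08 over all genes. After quantile normalization 6 members rose and 12 fell (median -0.07), against 23% and 24.8% of all genes (median -0.07). Median centring gave 12 rises and 5 falls, against 26.5% and 15.9% of all genes, and cyclic loess 12 and 8, against 26.7% and 14.8%. Rises thus outnumbered falls among the members in 2 of these 3 scalings, and falls outnumbered rises after quantile normalization. Without RWDD4 clone 5 only 6 rose and 5 fell, against 22.7% and 15.2% of all genes. Without control clone 4, 7 rose and 8 fell, against 23.2% and 17.7% of all genes. A fit with the main axis of variation within the groups as a covariate called none of the 34 in limma (7 had an unadjusted p under 0.05) and 1 gene of all 14884. On that axis the RWDD4 clones lay at 19.7 to 35.9 and the control clones at -58.36 to -12.21, so axis and group cannot be told apart and the fit says nothing about single genes.

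**Figure D1:**
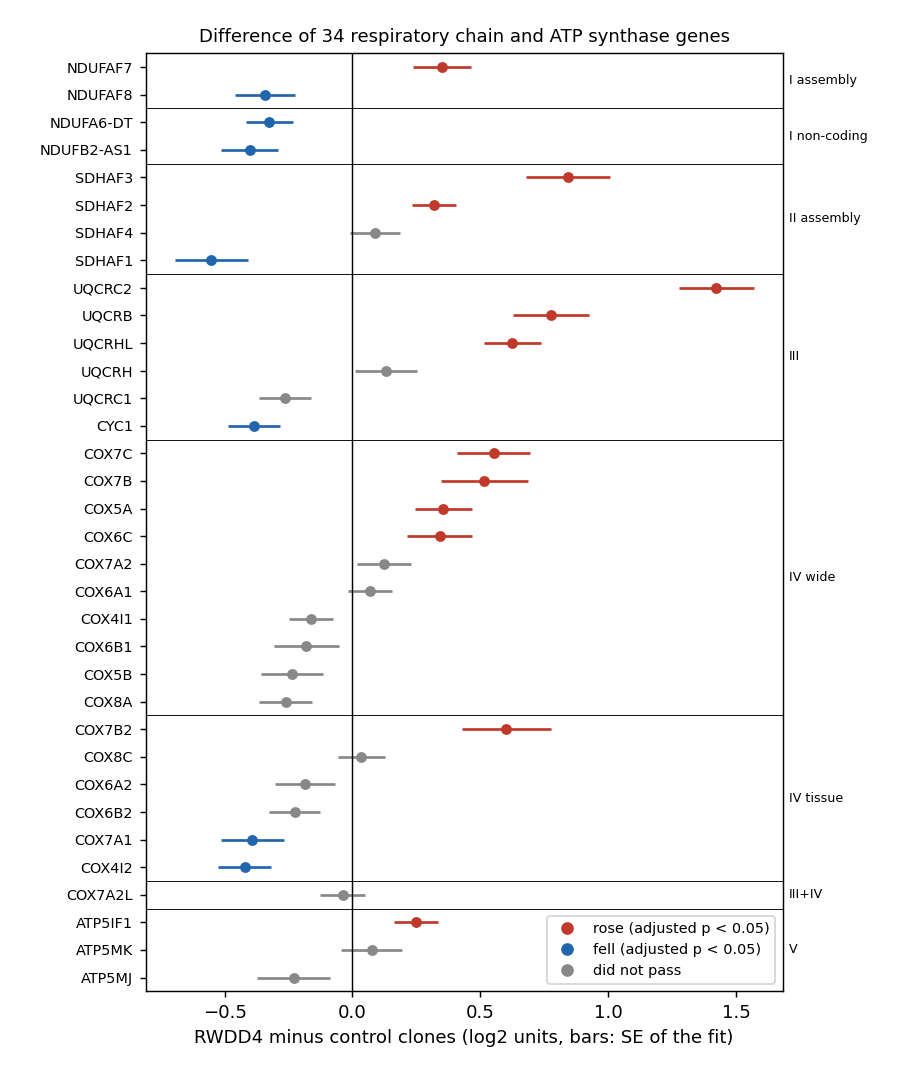
Difference between RWDD4 and control clones for each of the 34 genes on the log2 scale, with the SE of the fit as bars, grouped by complex; colours mark genes that rose, fell or did not pass. UQCRC2 stands at 1.42 and SDHAF1 at -0.55, and every class with more than 1 protein-coding gene has members on both sides of 0.

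Promoter letters are shown for 3 genes to set the one with the largest rise beside those with the most sites for factors known to drive respiratory genes. NRF1 (searched as GCATGCGC), the ETS family with GABPA (CCGGAAGT) and YY1 (AAGATGGC) were searched on both strands, from 250 bases before to 50 after the start, in RefSeq promoters (GRCh38.p14). Of the 34 genes, 28 had 32 promoters in the table. The NRF1 letters were in 4 of these promoters (12.5%), against 3.05% of all 35116, and the ETS letters in 5 (15.6%), against 4.14%. The YY1 letters were in 4 promoters of 3 genes (12.5%), against 2.89%. These shares rest on few promoters, and their difference from all promoters was not tested. Genes with NRF1 letters were SDHAF2, which rose, NDUFA6-DT, which fell, and COX5B and COX6A1, which did not pass. Of the 5 genes with ETS letters, SDHAF2 rose and COX5B, COX8A, UQCRH and ATP5MK did not pass. The YY1 letters were in NDUFAF8 and NDUFA6-DT, which fell, and in UQCRC1, which did not pass. The stretches end at the base before the start, read 5′ to 3′ on the plus strand, and capitals mark matches. In SDHAF2 (chr11:61430004-61430123) an ETS and an NRF1 match share 1 base and a further ETS match lies near the start, COX5B (chr2:97645912-97646061) holds 1 match of each with a further ETS match that runs over the start and is not shown, and UQCRC2 (chr16:21953241-21953360) holds none of the 3.
SDHAF2: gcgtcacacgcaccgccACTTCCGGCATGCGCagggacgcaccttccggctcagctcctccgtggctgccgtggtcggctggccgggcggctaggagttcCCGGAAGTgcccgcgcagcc
COX5B: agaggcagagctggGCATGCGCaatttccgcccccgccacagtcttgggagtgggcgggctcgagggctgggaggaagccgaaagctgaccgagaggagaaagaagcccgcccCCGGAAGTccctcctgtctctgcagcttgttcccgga
UQCRC2: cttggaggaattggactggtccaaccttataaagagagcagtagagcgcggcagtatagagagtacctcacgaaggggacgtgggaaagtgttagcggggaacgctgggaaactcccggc

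Complex III, which takes electrons from ubiquinol to cytochrome c, held the largest change. UQCRC2, core protein 2 on the matrix side of the complex, lay at 10.17, 9.84, 10.32 and 9.94 in RWDD4 clones 17, 24, 5 and 6 and at 8.31, 8.74, 8.62 and 8.92 in control clones 2, 3, 4 and 5. All RWDD4 clones were above all control clones. It rose by 1.42 (SE 0.15; adjusted p 7.98e-05), or 2.68-fold, and was the only member that changed at least 2-fold, a size reached by rises in 9.74% of all genes. Its partner UQCRC1, core protein 1, had a mean of 11.06 ± 0.17 with RWDD4 and 11.32 ± 0.07 with the empty vector (SD, n = 4 each). That difference of -0.26 (SE 0.10) did not pass, with an adjusted p of 0.0543, though it passed after quantile normalization (-0.34) and cyclic loess (-0.30) and without RWDD4 clone 17, as it did with a robust variance model or a level filter.

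UQCRB, a small subunit near the ubiquinone site, lay at 6.90, 6.79, 7.33 and 7.07 in RWDD4 clones 17, 24, 5 and 6. In control clones 2, 3, 4 and 5 it lay at 6.10, 6.25, 6.04 and 6.59. The groups were apart, and the rise was 0.78 (SE 0.15; adjusted p 0.0018). UQCRHL, an intronless copy of the hinge protein gene UQCRH, rose by 0.63 (SE 0.11; adjusted p 0.00123), from 8.89 ± 0.09 to 9.51 ± 0.20 (SD, n = 4 each). UQCRH itself had means of 7.12 ± 0.23 in controls and 7.25 ± 0.10 with RWDD4 (SD, n = 4 each) and did not pass (0.13, SE 0.12). The copy is nearly identical to its parent, so the probe sets may read both transcripts, and which of the pair moved is uncertain. CYC1, cytochrome c1, went the other way. In the clone order above it lay at 11.45, 11.40, 11.23 and 11.26 with RWDD4 against 11.94, 11.61, 11.66 and 11.67 in controls. Control clone 2 was highest, the groups did not overlap, and the fall was 0.39 on the log2 scale (SE 0.10; adjusted p 0.0108).

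**Figure D2:**
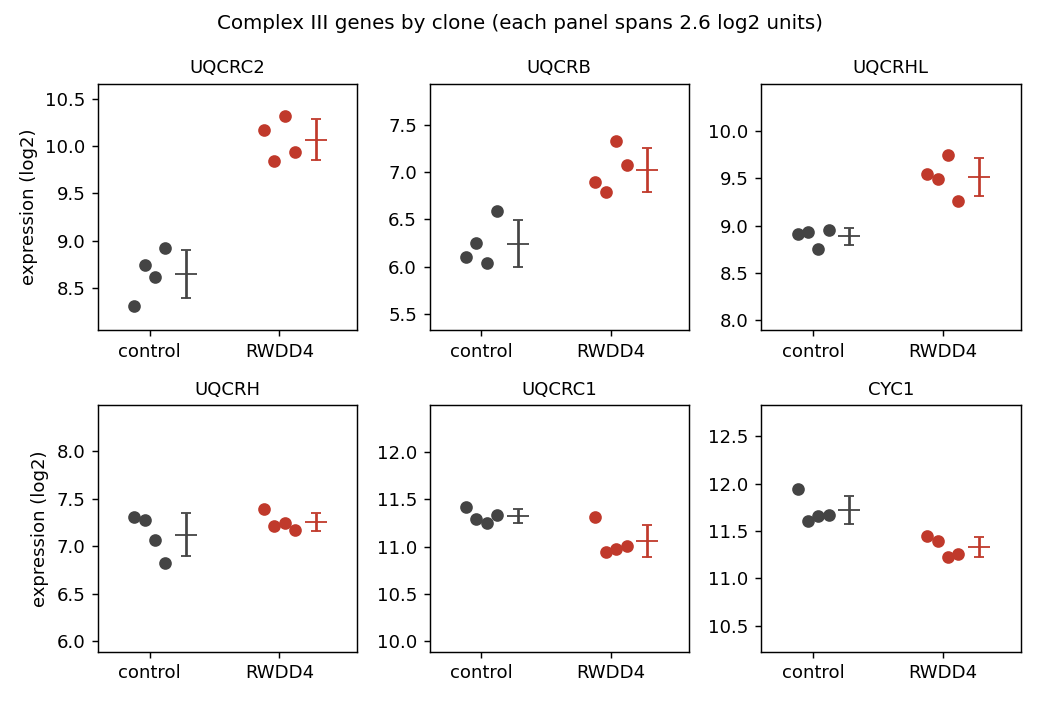
Log2 expression of the 6 complex III genes, with 1 point per clone and the mean with SD (n = 4) beside each group; every panel spans the same number of log2 units. UQCRC2, UQCRB and UQCRHL are higher in all RWDD4 clones, CYC1 is lower in all of them, and UQCRH and UQCRC1 overlap.

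Complex IV, cytochrome c oxidase, hands the electrons to oxygen. Its copper and haem core is encoded by mitochondrial DNA, and the genes measured here encode the nuclear subunits around it. Of 10 widely expressed subunits 4 rose and none fell (median 0.10), against 25.1% risen and 21.6% fallen over all genes. After quantile normalization the median of these subunits was -0.05. COX7C, a single-helix membrane subunit, lay at 8.80, 8.65, 9.24 and 8.92 in RWDD4 clones 17, 24, 5 and 6 and at 8.29, 8.50, 8.09 and 8.52 in control clones 2, 3, 4 and 5. Clone 5 was highest and the groups were apart, with a rise of 0.55 (SE 0.14; adjusted p 0.00931). COX5A, a matrix-side subunit, lay at 10.35, 10.32, 10.63 and 10.76 against 10.15, 10.14, 10.11 and 10.24. The groups were only narrowly apart, and the rise was 0.36 (SE 0.11; adjusted p 0.0243).

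COX7B, also a single-helix subunit, rose by 0.52 (SE 0.17; adjusted p 0.0292), and COX6C by 0.34 (SE 0.13; adjusted p 0.0479), with overlapping groups in both. The calls of COX5A, COX7B and COX6C were each lost when any of several clones was left out. Their differences stayed positive, at 0.27 to 0.42, 0.40 to 0.65 and 0.26 to 0.43. COX5A did not pass without RWDD4 clone 5, RWDD4 clone 6 or control clone 4, and COX7B did not pass without RWDD4 clone 5, control clone 3 or control clone 4. COX6C passed only when the clone left out was control clone 2. None of COX5A, COX7B and COX6C passed after quantile normalization, at 0.24, 0.33 and 0.33.

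The other widely expressed subunits did not pass. COX4I1, the subunit through which ATP is thought to act on the enzyme, lay at 11.42, 11.51, 11.41 and 11.29 with RWDD4 against 11.55, 11.64, 11.48 and 11.60 in controls, and the groups overlapped (-0.16, SE 0.09; adjusted p 0.145). COX8A, COX5B and COX6B1 had differences of -0.26, -0.24 and -0.18, and COX7A2 and COX6A1 of 0.12 and 0.07. After quantile normalization COX4I1, COX5B, COX6B1 and COX8A passed as falls, at -0.27, -0.43, -0.38 and -0.34. COX8A also passed after cyclic loess (-0.32), with the robust variance model and without control clone 4, and COX5B without control clone 5. COX6A1 was read by 2 probe sets. The brighter one (means 12.85 and 12.79) gave 0.07 and the dimmer one (4.03 and 3.76) gave 0.28, and neither passed, though the brighter one passed as a rise with the trend over gene span removed (0.27). COX7A2L, which helps join complexes III and IV into supercomplexes, lay at 6.00 ± 0.11 and 6.03 ± 0.05 (SD, n = 4 each) in RWDD4 and control clones.

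Complex IV also has isoforms that replace the common subunits in certain tissues, and 6 of these genes were measured. Of them 1 rose and 2 fell (median -0.21), against 25.1% risen and 21.6% fallen over all genes. COX4I2, the form of subunit 4 best known from lung, lay at 5.83, 6.01, 6.0 and 5.93 in RWDD4 clones 17, 24, 5 and 6 and at 6.53, 6.22, 6.50 and 6.22 in control clones 2, 3, 4 and 5. The groups did not overlap, and the fall was 0.42 (SE 0.10; adjusted p 0.00754). COX7A1, the heart and muscle form of subunit 7A, lay at 4.47, 4.77, 4.48 and 4.46 against 4.89, 5.24, 4.83 and 4.78. The groups did not overlap, though RWDD4 clone 24 came close to control clone 5, and the fall was 0.39 (SE 0.12; adjusted p 0.0238). It did not pass without RWDD4 clone 17, 5 or 6 or control clone 3, nor after median centring or cyclic loess. COX7B2, a testis form, rose by 0.60 (SE 0.17; adjusted p 0.016) with overlapping groups, and did not pass without RWDD4 clone 5. COX6A2 of heart and muscle lay at -0.19 and the testis forms COX6B2 and COX8C at -0.23 and 0.04, none past the test, though COX6B2 passed as a fall with array weights (-0.26). The means over all clones of COX7A1, COX6B2 and COX8C, and of SDHAF3 below, were under the median of all values. Whether these low values are signal over background was not determined.

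The changes of genes with like names were also set against each other within each clone, where a common scaling of a clone cancels. Some of these pairs are partners or isoforms, while NDUFAF7 and NDUFAF8 are separate factors and COX5A and COX5B separate subunits. Of 10 pairs formed by name, chosen after the values had been seen, 3 did not overlap between the groups. UQCRC2 changed by 1.68 more than UQCRC1, NDUFAF7 by 0.69 more than NDUFAF8, and COX7A2 by 0.51 more than COX7A1. Each had an exact permutation p of 0.0286, the smallest possible, and 0.0953 after Benjamini-Hochberg adjustment over the 10 pairs. Since 4 against 4 clones allow no smaller p and the pairs were chosen with their values known, these p-values decide nothing, and the differences are given as a description. COX7B and COX7B2 changed nearly alike, with -0.09 between them (exact permutation p 0.457), and COX5A changed by 0.59 more than COX5B (exact permutation p 0.0857).

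Complex V was represented by 3 genes. ATP5IF1, which blocks the enzyme from running backwards and burning ATP, lay at 7.04, 7.08, 7.08 and 6.89 in RWDD4 clones 17, 24, 5 and 6 and at 6.68, 6.83, 6.82 and 6.77 in control clones 2, 3, 4 and 5. The groups were only narrowly apart. The rise of 0.25 (SE 0.09; adjusted p 0.0355) did not pass after quantile normalization (0.11). It passed with RWDD4 clone 6 or control clone 3 left out, but not with any other clone left out. ATP5MK and ATP5MJ, small membrane subunits, had means of 9.19 ± 0.02 and 7.02 ± 0.15 with RWDD4 against 9.11 ± 0.25 and 7.25 ± 0.29 in controls (SD, n = 4 each). Neither passed, at 0.08 and -0.23.

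The 6 assembly factors split, with 3 up, 2 down and 1 that did not pass, against 25.1% risen and 21.6% fallen over all genes. Complex II, succinate dehydrogenase, links the citric acid cycle to the chain, and its 4 factors were all measured. SDHAF3, which acts in maturation of the iron-sulfur subunit SDHB, lay at 5.16, 4.39, 4.57 and 4.66 in RWDD4 clones 17, 24, 5 and 6 and at 4.03, 3.66, 3.69 and 4.02 in control clones 2, 3, 4 and 5. Clone 17 was highest, the groups were apart, and the rise was 0.84 (SE 0.16; adjusted p 0.00205). SDHAF1, which delivers iron-sulfur clusters to the same subunit, lay at 7.46, 7.58, 7.42 and 7.19 against 8.33, 7.84, 8.01 and 7.68. It was lower in all RWDD4 clones and had the largest fall among the 34 genes, 0.55 (SE 0.14; adjusted p 0.0096). SDHAF2, needed to attach flavin to SDHA and carrier of the NRF1 and ETS letters shown above, lay at 8.92, 8.94, 9.05 and 8.90 against 8.57, 8.77, 8.56 and 8.64. The rise was small, with no overlap (0.32, SE 0.09; adjusted p 0.0127), and did not pass after quantile normalization (0.16, adjusted p 0.147). SDHAF4, a chaperone of flavin-bound SDHA, did not pass (0.09, SE 0.10).

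The 2 complex I factors differed in direction. NDUFAF7, a methyltransferase that acts early in complex I assembly, lay at 7.70, 7.66, 7.91 and 7.67 in RWDD4 clones 17, 24, 5 and 6 and at 7.24, 7.63, 7.22 and 7.43 in control clones 2, 3, 4 and 5. The groups were only narrowly apart, and it rose by 0.35 (SE 0.11; adjusted p 0.0267). NDUFAF8, which works with another complex I factor, NDUFAF5, lay at 9.87, 9.82, 9.67 and 9.63 against 10.21, 10.32, 9.88 and 9.94. The groups again lay close, and it fell by 0.34 (SE 0.12; adjusted p 0.0339). NDUFAF7 did not pass without RWDD4 clone 5, control clone 2 or control clone 4, nor after quantile normalization (0.15). NDUFAF8 did not pass without RWDD4 clone 5 or 6 or control clone 2 or 3, nor after median centring.

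The non-coding genes were both lower in the RWDD4 clones. NDUFA6-DT, transcribed away from the complex I gene NDUFA6, lay at 6.98, 7.01, 6.98 and 6.89 in RWDD4 clones 17, 24, 5 and 6 and at 7.20, 7.23, 7.26 and 7.47 in control clones 2, 3, 4 and 5. The groups did not overlap, and it fell by 0.32 (SE 0.09; adjusted p 0.014). A dimmer probe set of it gave -0.29 and did not pass. NDUFB2-AS1, antisense to NDUFB2, fell by 0.40 (SE 0.11; adjusted p 0.0125) with overlapping groups. These genes make no respiratory protein, and their neighbours NDUFA6 and NDUFB2 were not analysed here.

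RWDD4 clone 5 had the highest value of its group in 12 of all 34 genes, in 9 of the 12 genes that rose and in none of the 7 that fell. A high value in 1 RWDD4 clone raises the group mean, so these counts are not independent of the calls. RWDD4 clone 6 had the lowest value of its group in 19 of all 34 genes. The same counts over all genes measured were not made. In the control group, clone 4 had the lowest value in 17 of all 34 genes and clone 2 the highest in 16. The mean deviation of the 34 genes from their own means was 0.08, 0.02, 0.11 and -0.04 in RWDD4 clones 17, 24, 5 and 6 and 0.04, -0.005, -0.15 and -0.06 in control clones 2, 3, 4 and 5, so the groups overlapped. For the mean of the 6 complex III genes the groups did not overlap, with 0.09 to 0.29 under RWDD4 against -0.29 to -0.14 for controls. That mean includes UQCRC2, which rose by 1.42, and CYC1 (-0.39) and UQCRC1 (-0.26) went the other way. The mean of the complex IV tissue isoforms lay lower in every RWDD4 clone, at -0.10 to -0.03 against 0.004 to 0.13. Among them COX7B2 (0.60) and COX8C (0.04) went the other way. The widely expressed complex IV subunits overlapped, at -0.02 to 0.16 against -0.21 to 0.08.

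**Figure D3:**
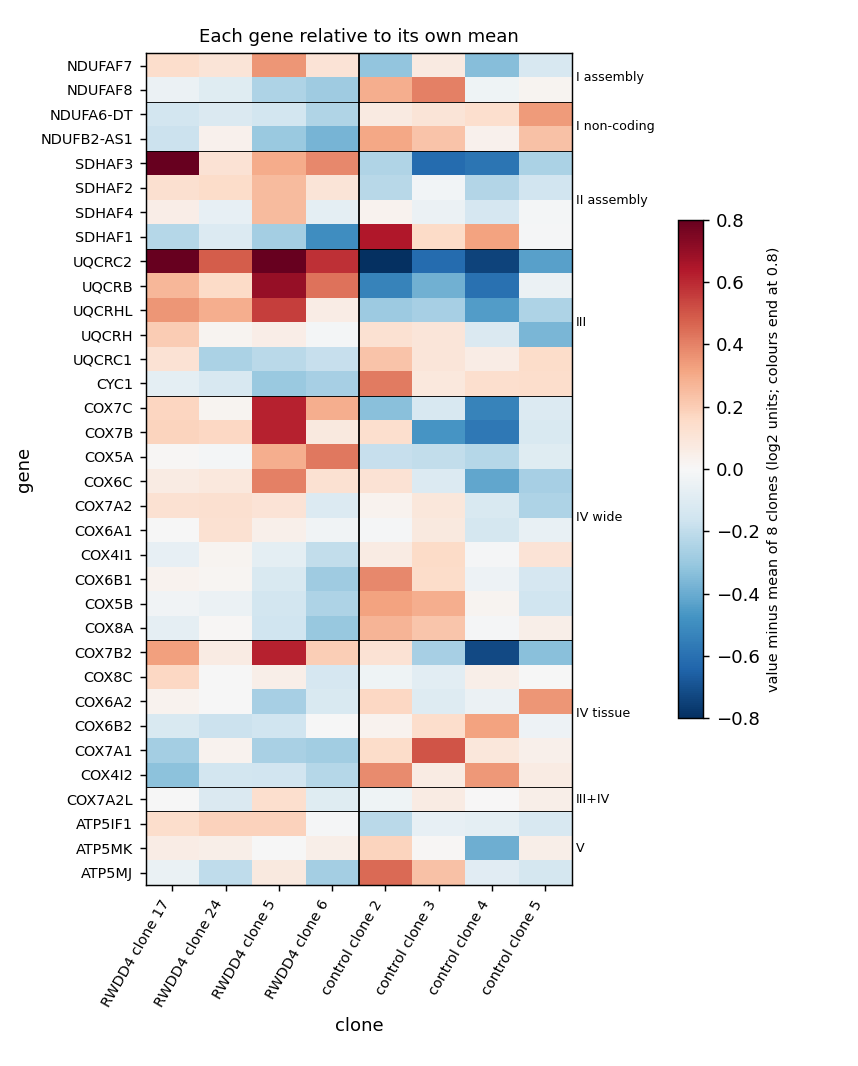
Each gene in each clone as its log2 value minus the gene's mean over the 8 clones, from blue (lower) to red (higher), with genes grouped by complex and the RWDD4 clones to the left of the line. RWDD4 clone 5 has the highest value in UQCRC2, UQCRB, COX7C, COX7B and COX7B2, and control clone 4 the lowest or next to lowest in the same genes. Colours are capped, so values beyond the ends of the scale look alike.

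Differences followed the genomic span of the gene, the length from its start to its end with introns. The 32 protein-coding members were short, with a median span of 7668 bases against 26724 over 11916 protein-coding genes. Of 18 members in the shortest of 4 equal bins of genes by span 4 rose and 5 fell, while 8 of the 14 longer ones rose and none fell. Over all genes in that bin 8.06% rose and 37.5% fell. The second bin held 8 members, of which 4 rose, against 24.2% risen and 28.5% fallen over all its genes. In the third, 3 of 5 members rose, against 41% risen and 17% fallen. The bin of longest genes held only COX7B2, which rose, against 46.8% risen and 7.92% fallen. Spearman's rho between span and difference was 0.53 over the 32 members and 0.40 over all protein-coding genes, which share the arrays and are not independent replicates. UQCRHL (276 bases), ATP5IF1 (1977), COX7C (3022) and COX7B (7909) were the 4 short genes that rose. The UQCRHL probe set may also read UQCRH (13079 bases), so the place of that rise among the short genes is uncertain. With each clone's trend over span removed, 11 members rose and 2 fell, against 23.8% and 22.9% of all genes. Of the 19 calls 12 passed in the same direction, and COX6A1 passed as a further rise (0.27, adjusted p 0.0289). The 5 falls that no longer passed were CYC1, COX4I2, COX7A1, NDUFAF8 and NDUFB2-AS1, and the rises of COX7B2 and NDUFAF7 also did not pass. The part of span in these differences was not tested beyond this.

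**Figure D4:**
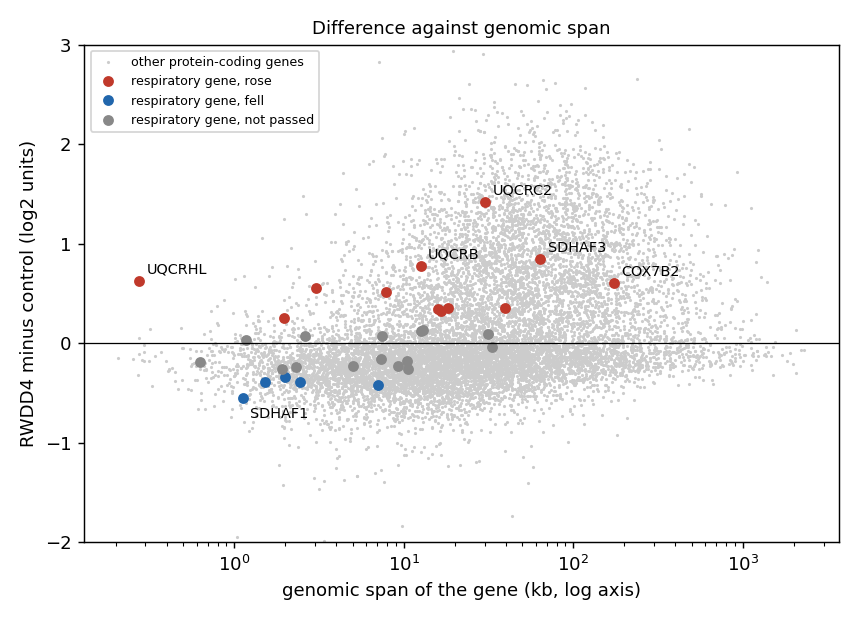
Difference between RWDD4 and control clones (log2 units) against genomic span (kb, log axis) for all protein-coding genes in grey and the 32 protein-coding respiratory genes in colour; 6 grey genes lie outside the vertical axis. All 5 coloured falls are genes of short span. UQCRHL at 0.63 is the shortest gene that rose, though its probe set may also read the longer UQCRH.

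Among other genes of the pathway the rises were more numerous. Of 64 related genes that are not members, 31 rose and 11 fell (median 0.25), against 25.1% risen and 21.6% fallen over all genes. After quantile normalization 25 rose and 16 fell, against 23% and 24.8% of all genes. With the trend over span removed 30 rose and 10 fell, against 23.8% and 22.9% of all genes. Complex IV assembly factors moved mostly upward, with 12 of 20 up and 3 down (median 0.34). LRPPRC, which stabilises mitochondrial mRNAs, rose by 1.94, COX20 and COX18, which help to insert the core subunit COX2 into the membrane, by 0.94 and 0.82, and COX11, which carries copper to COX1, by 0.71. For complex V, ATPAF1, which helps build the catalytic head, rose by 1.19 and TMEM242 by 0.86, and ATPAF2 fell by 0.31, with 4 of 5 up when ATP5IF1 is counted and 1 down. LYRM7, which hands the Rieske protein to complex III, rose by 1.16 and was the 1 of 5 complex III factors that passed. Complex I factors outside the NDUF names gave 3 up and 2 down of 9, with NUBPL and TMEM126B at 0.92 and 0.91 and ECSIT at -0.79.

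Of 19 electron carriers listed only 9 could be read, with 3 up and 2 down, against 25.1% and 21.6% of all genes. GPD2, which feeds electrons from glycerol 3-phosphate, rose by 1.92 and ETFDH, which feeds them from fatty acid oxidation, by 1.18, while COQ8A, a factor of ubiquinone synthesis, fell by 0.51. For the citric acid cycle and pyruvate dehydrogenase 10 of 17 listed genes could be read. Of these 6 rose and 1 fell, led by DLD at 1.54, DLAT at 1.31 and IDH3A at 0.88. Only 7 of 18 listed regulators and mitochondrial transcription genes could be read, of which 3 rose and 2 fell. MTERF3, which binds mitochondrial DNA, rose by 1.32 and YY1 by 0.59, while POLRMT, the mitochondrial RNA polymerase, and ESRRA, a nuclear receptor that drives respiratory genes, fell by 0.88 and 0.71. The NRF1 gene lay at 0.15 and did not pass.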

How the data were processed

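The deposited values are on a log2 scale, 1 per probe set and array; Partek and RMA are named without versions, per the submitters' processing notes. For settings, build and batches no source was found here. Of 53617 probe sets, 16098 had 1 gene symbol in the platform annotation, and the other 37519, with none or several, were left out. Each of the 14884 genes was read by its probe set with the highest mean over the 8 arrays, with no filter on low values. The groups were compared in R 4.3.3 by limma 3.58.1 (lmFit, eBayes; two-sided), adjusting by Benjamini-Hochberg over all genes, after the script had been tested on simulated data. Exact permutation used 70 relabellings. Whether clones came from separate infections is not stated, so p-values measure the spread between these clones. Spans and current symbols came from RefSeq (GRCh38.p14). Members and lists were chosen with earlier results of these data known. Any member could be named. Values per clone were required for the 2 largest rises and 2 largest falls per class that passed without overlap of the groups, for changes of at least 2-fold that passed, and, whatever their result, for listed redox and catalytic subunits, of which CYC1, COX4I1 and COX5A were measured. From each related list at most 4 changed genes were named, plus NRF1, whose motif was searched. Alternatives were the variance model, probe set choice, a level filter, 3 scalings, array weights, all probe sets, each clone's trend over span (lowess, 0.3), the within-group axis as covariate, and leaving out each clone.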

Additional observations from a re-analysis of the deposited data

Results flagged for a closer look

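In 4 of 70 groups of 4 clones tested (34 respiratory genes and RWDD4, in 2 groups), 1 clone stood apart from the other three by more than Dixon's critical value; chance gives about 5% of groups. RWDD4 itself was lowest in RWDD4 clone 6, at 9.87 against 10.42 or more in the others. In the same clone COX7A2 was lowest, at 7.44 against 7.66 or more. COX7A1 was highest in RWDD4 clone 24, at 4.77 against 4.48 or less, and NDUFAF7 was highest in RWDD4 clone 5, at 7.91 against 7.70 or less. NDUFAF7 did not pass without RWDD4 clone 5, while COX7A1 still passed without clone 24.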

How the results depend on the processing

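The 12 rises and 7 falls became 6 and 12 after quantile normalization, 11 and 2 with the span trend removed, and 0 and 0 with the within-group axis as covariate. That axis was computed from the same 8 arrays and separates the groups, with every RWDD4 clone above 0 and every control clone below, so the covariate takes up the group difference and its lost calls and changes of sign say nothing about single genes. With it limma called 0 of the related genes risen and 0 fallen, RWDD4 differed by 1.88 (adjusted p 0.159), and CYC1 and SDHAF1 changed sign, at 0.022 (adjusted p 0.972) and 0.19 (adjusted p 0.722). Leaving out 1 clone gave 6 to 10 rises and 5 to 8 falls. Over all genes these fits called 22.7% to 25.1% risen and 15.2% to 20.4% fallen. Of the 19 calls, 11 held whichever single clone was dropped, 11 in each of the 3 other scalings and 12 without the span trend. In all 3 respects 7 held. Those 7 were UQCRC2, UQCRB, UQCRHL, COX7C and SDHAF3, which rose, and SDHAF1 and NDUFA6-DT, which fell. The UQCRHL probe set may also read UQCRH. How many calls over all genes held in these respects was not counted, so the 7 cannot be set against a general share. Median differences after quantile normalization were -0.072 for all members, -0.15 for complex I and 0.071 for complex II assembly factors, 0.21 for complex III, -0.045 for widely expressed complex IV subunits, -0.082 for complex V, -0.51 for the non-coding genes and 0.090 for the related genes. Without the span trend they were 0.51 for complex III, 0.25 for widely expressed complex IV subunits, -0.026 for tissue isoforms, 0.24 for complex V and 0.15 for related genes. With the axis they were 0.14 for all members, -0.089 for tissue isoforms, 0.27 for complex V and 0.058 for related genes. The tissue isoforms had a median of -0.095 after cyclic loess, complex II factors 0.088 with the level filter, and widely expressed complex IV subunits 0.20 with the dimmest probe set. The complex V median ran from -0.042 to 0.15 with 1 clone left out. The cause of these shifts was not tested. No paired analysis was possible because the labels pair no clones, and the 1 clone number that the groups share marks no pair. Signal over background was not measured, which limits the 4 genes under the median of all values.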
